A study of Mus musculus with 23 samples.

Results

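Type I interferon-stimulated genes were followed in mouse spleen B cells whose Irf8 gene had been targeted with a guide RNA. They are 49 genes named by symbol, of 11944 genes in the deposited tables of expression values. The list uses no cut on a measured value, but it was drawn up with earlier results of these data known. All 49 were in the table of naive cells and 47 in that of cultured cells, where Ifit3 and Ifi44 were not listed. The study sequenced polyA RNA of sorted spleen B cells in 23 libraries, the tissue, cell type and sort markers being those of the labels. Cells of every group were B220-positive and lacked Thy1.2, CD11b and F4/80. WT cells carried no guide and were Thy1.1-negative, and KO cells carried a guide against Irf8 and were Thy1.1-positive, so the guide and the Thy1.1 sort cannot be told apart. No group with a control guide was analysed here, and how the guide reached the cells, the mouse strain and the age of the animals are not given in the sources used here. Naive B cells were untreated, with 3 WT and 3 KO libraries (A, B and C) in each of 2 arms, the first arm with guide 1 and the second with guide 2. Activated B cells (GL7-positive, CD138-negative; 3 WT, 3 KO) and plasmablasts (CD138-positive, labelled plasma cells; 2 WT, 3 KO) came from naive cells cultured for 72 hours with IL-2 (20 ng/ml), IL-5 (5 ng/ml) and LPS, whose dose the labels give as 20 mg/ml, and their KO cells carried guide 1. The third WT plasmablast library is not analysed here.

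Type I interferons bind the receptor formed by IFNAR1 and IFNAR2, whose signal leads to a factor complex in the nucleus. That complex, which contains IRF9, binds the interferon-stimulated response element (ISRE) in promoters of interferon-stimulated genes. Products of such genes sense viral RNA and DNA, block viral replication or feed back on the pathway. IRF8 belongs to the same factor family as IRF9, is expressed in B cells, and binds DNA with a partner, at ISRE-like sites with other IRFs and at composite elements (EICE) with the ETS factors PU.1 and SPIB.

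Promoter sequences from RefSeq (GRCm38.p6), from 250 bases before to 50 after each start, were matched for 39 of the 49 genes. The ISRE core (GAAA, any 2 bases, GAAA), searched on both strands, was in a promoter of 19 of these 39 genes (48.7%), against 1079 of 27025 genes of the promoter table (3.99%) and 358 of 9309 of those in the naive table (3.85%). The EICE core (GGAA, any 2 bases, GAAA), which differs from it in 1 letter so that a stretch read in 1 direction matches at most 1 of them, was in 7 of the 39 (17.9%), against 3.16% of the genes of the promoter table. A match is a description of the letters and not of binding. The 100-base stretches below are from genes called in naive cells, 4 that were higher and 2 that were lower in KO cells, and are shown because genes that moved in opposite directions hold the same core. Each ends at or before the start site, reads 5′ to 3′ on the gene's strand, and has the ISRE core on either strand in capitals.
Ifit1 (chr19:34640733-34640832, plus strand): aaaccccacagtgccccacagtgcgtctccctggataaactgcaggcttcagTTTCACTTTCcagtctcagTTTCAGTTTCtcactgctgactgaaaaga
Isg15 (chr4:156200856-156200955, minus strand): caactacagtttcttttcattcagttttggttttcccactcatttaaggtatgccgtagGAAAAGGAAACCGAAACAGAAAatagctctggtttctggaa
Oas1a (chr5:120907526-120907625, minus strand): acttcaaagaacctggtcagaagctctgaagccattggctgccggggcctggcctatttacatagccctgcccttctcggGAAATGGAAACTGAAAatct
Ddx60 (chr8:61927987-61928086, plus strand): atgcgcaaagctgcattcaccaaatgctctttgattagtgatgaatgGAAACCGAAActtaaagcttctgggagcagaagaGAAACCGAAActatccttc
Phf11a (chr14:59297523-59297622, minus strand): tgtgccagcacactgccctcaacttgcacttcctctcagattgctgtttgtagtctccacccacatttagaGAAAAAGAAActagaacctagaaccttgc
Phf11b (chr14:59341352-59341451, minus strand): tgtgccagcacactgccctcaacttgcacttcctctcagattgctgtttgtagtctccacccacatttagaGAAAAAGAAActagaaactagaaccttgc
The core occurs as overlapping copies in Isg15 and Oas1a, as separate copies in Ifit1 and Ddx60, and once in each Phf11 promoter. Of the 7 genes that rose in naive KO cells 5 held the core in these 300 bases, the exceptions being Herc6 and Lgals3bp, as did both that fell and 11 of 28 that were not called. The EICE core was in none of the 9 called genes and in 6 of the 28 not called, among them Slfn2 and Sp100.

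Several libraries stood apart or went against their labels. Thy1, the gene of the sort marker, was at 0.093 RPKM (read counts divided by gene length and library size) in the activated library labelled KO m3 and at 25.7 in that labelled WT m3, against 21.9 and 27.8 in the other activated KO and 0.013 and 0.055 in the other activated WT libraries. Irf8 was at 92.4 RPKM in the library labelled KO m3 and 60.0 in that labelled WT m3, against 69.2 and 68.1 in KO and 108 and 93.6 in WT of m1 and m2. Plasmablast KO library m3 held an estimated 51000 assigned reads, against 4300000 to 26900000 in the other cultured and 14500000 to 22200000 in the naive libraries. In it 11 of the 47 genes were listed at 0, the median gene of the set had 2 reads, and 1 read was worth 0.979 to 42.4 RPKM. Naive KO guide 1 library A listed 1405 genes at 0 and correlated with the other naive libraries at a median r of 0.870, and naive WT library A of arm 1 had Thy1 at 4.93 RPKM, where no further naive WT library exceeded 0.052. For comparisons of KO with WT and of plasmablasts with activated cells, counts of called genes are given with and without them. Differences of single genes include all libraries unless said otherwise. B cell markers were measured in all groups (6 of 6 listed, summed RPKM of 1694 or more in naive and activated cells), no neutrophil marker of 5 was listed, and of 6 T cell markers only Lck was. Markers of further cell types differed among the naive libraries and are given beside the results there.

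In naive B cells both directions occurred among the interferon-stimulated genes: Ifit1, Isg15, Ifit3, Lgals3bp, Oas1a, Ddx60 and Herc6 were higher in KO than in WT cells with the guides averaged, and Phf11a and Phf11b were lower. That is 9 of 47 tested genes, against 191 of 10137 genes tested (1.88%), with 7 higher (against 1.03% of all genes) and 2 lower (0.858%). Called means an adjusted p under 0.05 in limma, on log2(RPKM + 1), adjusted by Benjamini-Hochberg over all genes tested, and differences are KO minus WT on that log2 scale, averaged over the 2 arms. The remaining 38 genes were not called, and over the 47 the median difference was 0.01, with 25 above 0 and 22 below, against a median of -0.02 over all genes. Without the A libraries of WT and KO of arm 1, which stood apart, 10 genes were called (against 3.35% of all genes), these 9 and Ifi27l2a (-0.62, adjusted p = 0.0292). All 6 KO values lay above all 6 WT values for 5 genes of the set (against 0.957% of all genes) and below them for 3 (0.927%). Irf8 itself was at 47.6 to 77.7 RPKM in the KO and 79.8 to 98.0 in the WT libraries and was lower by limma (log2 difference -0.61, SE 0.08, adjusted p = 0.00412). In bulk RNA, fewer cells expressing a gene and less RNA per cell cannot be told apart, and since the labels do not say that libraries came from separate animals or cultures, the p-values measure the spread between these libraries.

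IFIT proteins bind viral RNA and block its translation. Ifit1 (chromosome 19, 34640889 to 34650009) was at 29.1, 12.2 and 15.4 RPKM in KO libraries A, B and C of guide 1 and at 13.2, 23.5 and 20.8 in those of guide 2, and at 4.41, 5.24 and 7.69 in WT of arm 1 and 3.18, 3.41 and 2.25 in WT of arm 2. Every KO library was above every WT library, and the log2 difference of 1.91 (SE 0.22, adjusted p = 0.00313 by limma) was the largest of the set. Ifit3 was at 69.6, 23.4 and 58.7 RPKM in KO of guide 1 and 67.1, 62.9 and 76.2 in KO of guide 2, against 24.6, 36.0 and 26.1 and then 28.3, 19.8 and 14.7 in WT (1.19, SE 0.24, adjusted p = 0.0265). Its groups overlapped through KO guide 1 library B, which lay below 4 of the 6 WT libraries. Ifit3b, a close copy of Ifit3 that is not in the set and may share its reads, rose as well (1.57, adjusted p = 0.0273), with KO libraries at 5.89 to 30.1 RPKM (median 23.8) and WT at 3.32 to 9.47 (median 6.32). Ifit1bl1 had a difference of 1.05 with overlapping groups and was not called (adjusted p = 0.147), and Ifit2 had 0.14.

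Isg15 encodes a ubiquitin-like protein that is attached to other proteins, and Herc6 the mouse ligase that attaches it. Isg15 was at 32.2, 13.7 and 26.8 RPKM in KO of guide 1, 46.1, 26.6 and 25.7 in KO of guide 2, 8.0, 7.32 and 11.1 in WT of arm 1 and 13.8, 10.3 and 8.59 in WT of arm 2 (log2 difference 1.39, SE 0.22, adjusted p = 0.00837 by limma). Only KO guide 1 library B and WT library A of arm 2 met, and the arms did not overlap when each was taken alone. Herc6 rose less, by 0.54 (SE 0.12, adjusted p = 0.0436): KO libraries were at 8.97, 9.69 and 11.8 with guide 1 and 11.2, 10.7 and 10.4 with guide 2, and WT at 5.75, 5.49 and 7.82 and then 8.47, 6.95 and 7.06. Usp18, the protease that removes ISG15 and restrains the receptor, was not called (-0.03).

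OAS enzymes make the oligoadenylates that activate RNase L. Oas1a was at 14.1, 11.4 and 12.7 RPKM in KO of guide 1, 19.1, 15.1 and 16.9 in KO of guide 2, 3.63, 7.32 and 5.89 in WT of arm 1 and 8.98, 8.98 and 7.35 in WT of arm 2, with no overlap (1.01, SE 0.15, adjusted p = 0.00549 by limma). The other 4 OAS genes were not called, with Oas3 at 0.41, Oas2 at 0.38, Oasl2 at -0.39 and Oasl1 near 0. Oasl2 was at 0.009 RPKM in KO guide 1 library A and at 2.52 to 4.02 in the other KO libraries. Ddx60, a helicase linked to sensing of viral RNA, was the sensor of the set that rose (0.90, SE 0.14, adjusted p = 0.00872), 1 of 5 tested. It was at 4.86, 3.80 and 5.99 RPKM in KO of guide 1, 3.53, 4.22 and 4.11 in KO of guide 2, 0.955, 1.35 and 1.46 in WT of arm 1 and 2.73, 2.88 and 2.43 in WT of arm 2. The groups did not overlap, but WT cells of arm 2 held more Ddx60 than those of arm 1 in every library. Differences of the other tested sensors lay between -0.18 (Dhx58) and 0.14 (Zbp1), and Ifih1 was below the level needed for testing, at 0.225 to 1.86 RPKM. Dhx58 was at 2.43 RPKM in KO guide 1 library A and at 12.5 to 16.7 in the other KO libraries.

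Lgals3bp, a secreted glycoprotein that binds galectin 3, was at 32.4, 9.27 and 14.7 RPKM in KO of guide 1, 11.2, 8.84 and 10.1 in KO of guide 2, 5.82, 5.28 and 5.98 in WT of arm 1 and 4.14, 6.27 and 4.33 in WT of arm 2 (1.15, SE 0.23, adjusted p = 0.0266 by limma). The highest value is that of KO guide 1 library A, and without that library and WT library A of arm 1 the difference was 0.93 (adjusted p = 0.00592). Both PHF11 genes, which encode PHD finger proteins and lie close together on chromosome 14, moved the other way. Phf11a was at 0, 0.829 and 2.01 RPKM in KO of guide 1, 2.03, 2.28 and 2.13 in KO of guide 2, 5.55, 6.85 and 10.8 in WT of arm 1 and 5.37, 6.44 and 5.21 in WT of arm 2 (-1.67, SE 0.24, adjusted p = 0.00549). Phf11b was at 27.2, 42.7 and 41.4 RPKM in KO of guide 1, 49.8, 62.3 and 52.0 in KO of guide 2, 92.8, 83.8 and 109 in WT of arm 1 and 74.2, 89.6 and 71.5 in WT of arm 2 (-0.93, SE 0.12, adjusted p = 0.00412). Neither gene's groups overlapped, and the stretches of their promoters printed above differ at 1 of 100 bases. Phf11c, a further copy outside the set, was not called (-0.09, adjusted p = 0.941). The plots of called genes by library show these 9 genes in all 12 naive libraries.

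**Figure D1:**
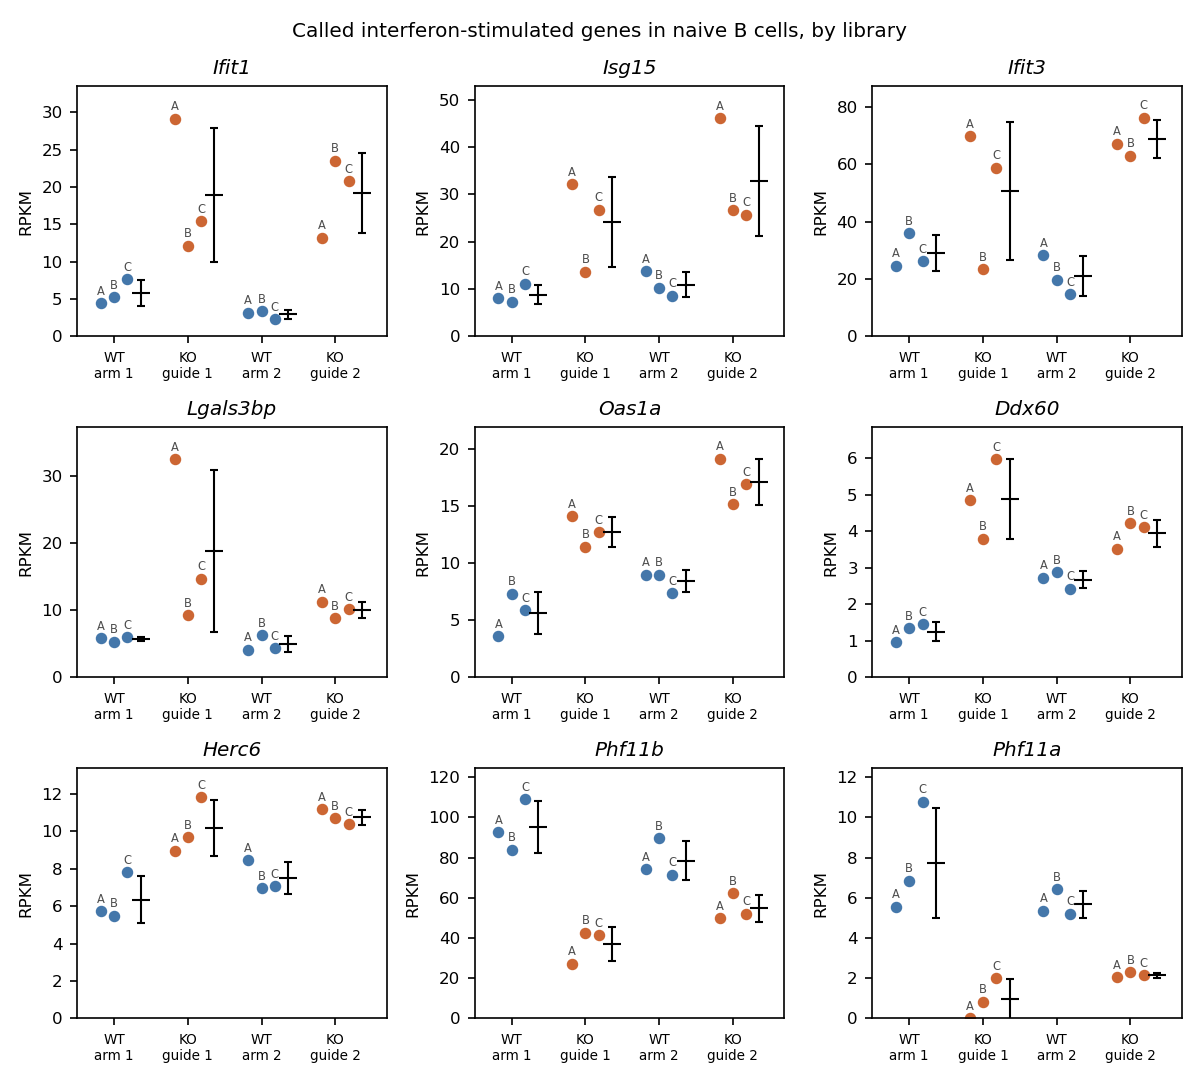
RPKM of the 9 called interferon-stimulated genes in naive B cells, 1 panel per gene, with WT (blue) and KO (orange) libraries A, B and C of each guide arm as points and the mean ± SD of each group of 3 as bars. Ifit1 in KO lies between 12.2 and 29.1 and in WT between 2.25 and 7.69, while Phf11a and Phf11b have every KO library below every WT library.

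Of 12 tested genes grouped as antiviral effectors 0 were called in naive cells, which at 1.88% of all genes is near the background, with a median difference of -0.20 and 3 above 0. They ranged from -0.93 for Cmpk2, a mitochondrial nucleotide kinase whose gene neighbours Rsad2, to 0.40 for Slfn5. Cmpk2 was at 0 RPKM in KO guide 1 library A and at 6.5 to 13.8 in the other KO libraries. Slfn5 was at 16.2 in KO guide 1 library A and at 4.39 to 7.08 in the other KO libraries. Without the A libraries of WT and KO of arm 1, the 12 differences ranged from -0.58 to 0.26. Samd9l, a restriction factor, was lower without being called (-0.70, adjusted p = 0.0773 by limma), with KO libraries at 35.3 to 73.0 RPKM (median 57.2) and WT at 67.8 to 106 (median 87.6). The same held for Ifi27l2a (-0.53, adjusted p = 0.0745) and Ms4a4c (-0.51, adjusted p = 0.0858), and Ms4a4c had all KO libraries (75.4 to 132 RPKM) below all WT libraries (134 to 175). None of 4 PARP and DTX3L genes (median 0.07), 3 TRIM genes (median -0.05) or 4 genes of transcription and signal control, Stat2, Nmi, Ifi35 and Rtp4 (0.01 to 0.26), was called. Ifi44 was not tested, at 0 to 0.697 RPKM.

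Among genes that drive the pathway, Tlr3, a sensor of double-stranded RNA, rose and Irf8, the targeted gene, fell. They are 2 of 37 pathway genes tested in naive cells, of 47 listed for comparison (5.41%, against 1.88% of all genes). Since Irf8 is itself the target of the guides, this share is not read as a result about the pathway. Tlr3 was at 3.52, 3.22 and 5.32 RPKM in KO of guide 1, 4.13, 10.5 and 2.44 in KO of guide 2, 0.658, 0.829 and 0.032 in WT of arm 1 and 3.09, 1.99 and 2.42 in WT of arm 2 (1.26, SE 0.27, adjusted p = 0.0364 by limma), so that the groups overlapped with guide 2. Irf9 (-0.23, adjusted p = 0.464) and Irf7 (0.03, 0.944) were not called, nor were the receptor chains Ifnar1 (-0.59, 0.102) and Ifnar2 (-0.65, 0.419). Ifnar1 was at 9.31 to 19.5 RPKM in KO and 18.1 to 25.7 in WT libraries. Ifnar2 was at 1.55, 7.84 and 13.8 in KO of guide 1 and 12.9 to 19.6 in its WT. With guide 2, Ifnar2 was at 13.4 to 14.0 in KO and 13.5 to 14.3 in WT. None of 8 interferon ligand genes could be tested. Summed markers of plasmacytoid dendritic cells, a known source of type I interferon, were at 0.912 to 4.62 RPKM in naive KO and 0.764 to 2.31 in naive WT libraries, with 3 of 5 listed and Klk1 and Cox6a2 not listed. The 3 markers did not move together. Pacsin1 was at 0.908 to 4.58 in KO and 0.711 to 2.22 in WT. Siglech and Ccr9 reached at most 0.216 and 0.177 in KO, and 0.986 and 0.437 in WT. Markers of natural killer cells (4 of 5 listed, Gzma not) summed to 0.013 to 0.688 RPKM in naive KO and 0.261 to 14.1 in naive WT libraries. Of these Nkg7, a granule protein gene, was at 6.91 and 5.49 in WT library C of arms 1 and 2 and at 3.57 in WT library B of arm 1, and at 0.189 or less in every other naive library. Summed macrophage and monocyte markers (4 of 7 listed) were at 1.17 to 10.4 in KO and 3.71 to 17.9 in WT, dendritic cell markers (3 of 5) at 0.047 to 3.14 and 0.889 to 2.93, and erythroid markers (2 of 5) at 2.54 to 21.7 and 2.76 to 13.9. Natural killer cell markers thus reached higher values in WT libraries, and the part of any of these cells in the differences was not tested.

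With guide 1 alone 5 of 47 genes were called, against 113 of 10137 genes (1.11%), with 3 higher (against 0.592% of all genes) and 2 lower (0.523%). KO libraries lay all above WT for 6 of the 47 (against 7.68% of all genes) and all below for 9 (10.0%). Ddx60 (1.37, SE 0.20, adjusted p = 0.0119), Oas1a (1.09, SE 0.21, 0.0329) and Ifit1 (1.49, SE 0.31, 0.0417) rose, and Phf11b (-1.36, SE 0.18, 0.0115) and Phf11a (-2.26, SE 0.34, 0.0119) fell, by limma. Isg15 had 1.30 with an adjusted p of 0.0652. Without the A libraries of WT and KO of arm 1, 6 were called (against 1.79% of all genes), with Ifi27l2a (-1.03) and Parp12 (1.63) in and Ifit1 out. This count depended on single libraries: it was 0 without WT library C of arm 1, 2 without WT library A of arm 1, 3 without KO guide 1 library C, KO guide 2 library B, or WT library A or C of arm 2, 8 without KO guide 1 library A and 9 without KO guide 1 library B. Parp12, called without the A libraries, was at 0.016, 3.71 and 1.52 RPKM in KO of guide 1 and 0.406, 0.173 and 0.048 in its WT. With guide 2 it was at 0.606, 0.358 and 0.089 in KO and 0.778, 0.067 and 0.275 in WT.

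With guide 2 alone Ifit1 was the single gene called, 1 of 47 against 3 of 10137 (0.0296%; 0.0197% higher), at a log2 difference of 2.33 (SE 0.31, adjusted p = 0.0268 by limma). Ifit3 (1.71, adjusted p = 0.272), Isg15 (1.48, 0.295), Oas1a (0.94, 0.358) and Trim25 (-0.81, 0.452) followed without being called. Trim25, a ubiquitin ligase that acts on RIG-I, was at 16.6, 18.6 and 10.5 RPKM in KO of guide 2 and 27.6, 26.4 and 26.6 in its WT, and at 18.5, 28.7 and 24.6 in KO of guide 1 and 26.7, 22.9 and 30.5 in its WT. Its groups were apart with guide 2 and overlapped with guide 1. KO libraries of guide 2 lay all above their WT libraries for 13 of the 47 genes (against 7.33% of all genes) and all below for 6 (6.44%). Without KO guide 1 library A and WT library A of arm 1, which enter here through the shared spread, 4 genes were called with guide 2 (against 0.256% of all genes), Ifit1, Oas1a, Ifit3 and Isg15. The count was 3 without KO guide 1 library A, 2 without KO guide 1 library B and 0 without any 1 of KO guide 1 library C, the KO libraries of guide 2, WT library A or B of arm 1 and the WT libraries of arm 2.

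No gene's effect was called different between the guides. For guide 1 minus guide 2, 0 of 47 genes and 0 of 10137 genes were called by limma (0%), and 7 and 479 had an unadjusted p under 0.05. The smallest p were those of Phf11b (-0.84, adjusted p = 0.918) and Ddx60 (0.95), then Oasl1, Phf11a and Ifi27l2a. Oasl1, an OAS-like inhibitor of Irf7 translation, was at 8.33, 7.10 and 7.82 RPKM in KO of guide 1 with WT at 9.11, 10.3 and 10.8, and at 9.97, 8.71 and 11.5 in KO of guide 2 with WT at 8.13, 9.59 and 5.86. It was lower in every KO library of guide 1, and its groups overlapped with guide 2. Ifi27l2a was at 183, 154 and 149 RPKM in KO of guide 1 with WT at 253, 281 and 344, and at 192, 179.7 and 237 in KO of guide 2 with WT at 211, 319 and 187. Only with guide 1 were its groups apart, a contrast that the test of the difference did not call. Of the 47 genes 29 had the same sign with both guides (61.7%), against 57.9% of all genes, and across these genes Pearson's r was 0.70 and Spearman's rho 0.61, against 0.41 and 0.29 over all genes, as a description, since genes are not replicates and the arms share processing.

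**Figure D2:**
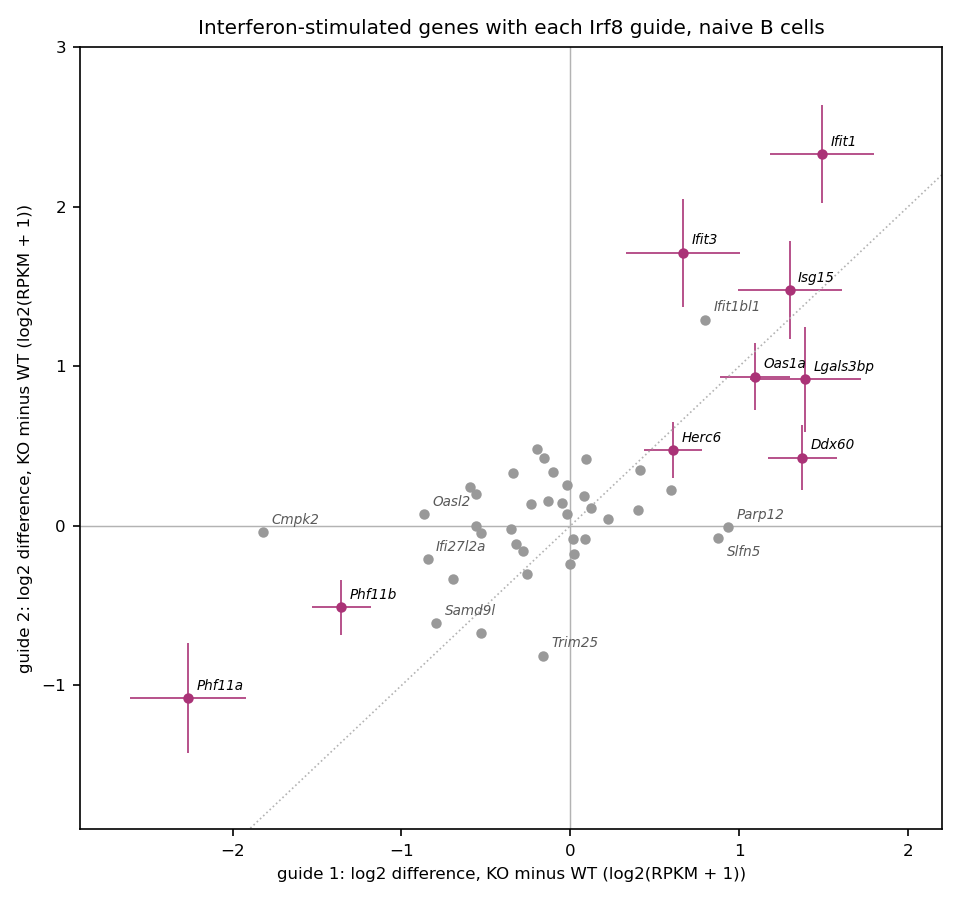
Log2 difference KO minus WT of each of the 47 tested interferon-stimulated genes in naive B cells with guide 1 (horizontal) and guide 2 (vertical), on the log2(RPKM + 1) scale, with ± SE for the 9 genes called with the guides averaged (purple) and a dotted line where both are equal. Ifit1 is highest at 1.49 and 2.33, Phf11a is lowest at -2.26 and -1.08, and most other genes lie near 0.

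WT cells of the arms were also compared with each other, since they carry no guide. None of the 47 genes was called by limma, against 5 of 10137 genes (0.0493%), and 4 of the 47 had an unadjusted p under 0.05. These were Ddx60 (arm 2 minus arm 1, 0.71), Oas1a (0.55), Ifit1 (-0.76) and Ifit2 (-0.59), all with an adjusted p of 0.999, and Slfn2 was next (-0.36). Ifit2 was at 7.12, 8.85 and 10.9 RPKM in WT of arm 1 and 4.35, 7.61 and 5.03 in WT of arm 2, and at 5.93, 8.73 and 8.36 and then 6.42, 7.10 and 11.6 in KO of guides 1 and 2. Slfn2, a regulator of lymphocyte quiescence, was at 313, 348 and 328 RPKM in WT of arm 1 and 289, 285 and 204 in WT of arm 2, and at 256, 327 and 219.6 and then 197, 278 and 242 in KO. Ddx60 and Oas1a were thus higher in every WT library of arm 2 than in every one of arm 1 (2 of 47 genes; against 7.26% of all genes), and Ifit1 and Slfn2 were among 4 that were lower in every one (8.18%).

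In activated B cells no interferon-stimulated gene was called between all 3 libraries labelled KO and all 3 labelled WT. By limma 0 of 44 tested genes and 0 of 9986 genes passed (0%), with 0 and 2 at an unadjusted p under 0.05, and the median difference was 0.07, against 0.01 over all genes. For no gene of the set were the groups apart, against 1.91% of all genes with KO above and 1.22% with KO below. The smallest p were those of Ifit1bl1 (0.88), Oas3 (0.24), Rtp4 (0.41), Cmpk2 (0.28) and Ifit1 (0.53), all with an adjusted p of 1.00. Mx1, Mx2 and Rsad2, antiviral genes that interferon induces strongly, were not tested in cultured cells: they were at 0.954 RPKM or less in every library except plasmablast KO m3, where Mx2 was listed at 7.70 and Rsad2 at 10.2.

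Library m3 ran against m1 and m2. Genes of the set were higher in the library labelled KO than in that labelled WT for 35 of 44 at m1 (median difference 0.19), 36 of 44 at m2 (0.23) and 10 of 44 at m3 (-0.26), against 46.1%, 53.0% and 56.1% of all genes. Of 31 genes higher in the library labelled KO at both m1 and m2, 29 were lower at m3, and of 4 lower at both, 3 were higher at m3. The same count was not made over all genes, so whether it is particular to the set was not tested. Ifit1 was at 20.9 and 23.6 RPKM in KO m1 and m2 and 9.56 and 6.43 in WT, but at 5.86 in the library labelled KO m3 and 14.7 in that labelled WT m3. Oas3 was at 1.71 and 1.89 in KO m1 and m2, 1.21 and 1.18 in WT, 0.963 in the library labelled KO m3 and 0.950 in that labelled WT m3. Thy1 and Irf8 were likewise opposite at m3 to m1 and m2, and whether these libraries were exchanged was not tested.

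Without libraries m3 of activated cells and plasmablast KO m3, 8 of 44 genes were higher in activated KO than WT cells and 0 lower, against 65 of 9986 genes called (0.651%), 58 of them higher (0.581%). This leaves 2 libraries in each cultured group, and 35 of the 44 differences were above 0, with a median of 0.20 against -0.01 over all genes. Isg15 was at 115.5 and 129 RPKM in KO m1 and m2 and 74.1 and 77.6 in WT (0.68, SE 0.10, adjusted p = 0.0141 by limma), and at 67.2 in the library labelled KO m3 and 109.9 in that labelled WT m3. Ifit1bl1 was at 3.84 and 3.17 in KO and 0.989 and 0.343 in WT (1.46, SE 0.22, 0.0141), against 0.225 and 0.484 in the libraries labelled KO and WT m3. Rtp4, a chaperone of receptors at the cell surface, was at 6.10 and 5.57 in KO and 1.93 and 1.62 in WT (1.30, SE 0.21, 0.0162), against 0.895 and 3.92 at m3. All 3 genes were higher in both KO libraries than in both WT libraries. In all, 26 of the 44 genes were, against 2406 of 9986 genes tested, while 3 and 2491 were lower in both. Isg20, an RNA exonuclease, was at 77.8 and 72.8 in KO and 44.5 and 50.8 in WT (0.65, adjusted p = 0.0237), against 46.9 and 82.6 at m3. Oas1a was at 16.4 and 14.8 in KO and 7.44 and 8.20 in WT (0.91, adjusted p = 0.0334), against 2.11 and 5.99 at m3. Cmpk2 was at 7.28 and 6.20 in KO and 3.19 and 3.35 in WT (0.85, adjusted p = 0.0334), against 1.34 and 3.24 at m3. In each of these 6 genes the library labelled WT m3 exceeded that labelled KO m3. Parp12, a zinc finger protein of the PARP family, was at 1.60 and 1.80 in KO and 0.431 and 0.422 in WT (0.92, adjusted p = 0.0334), and was listed at 0 in the library labelled KO m3 and at 1.2 in that labelled WT m3. Ddx60 was at 3.34 and 2.41 in KO and 1.2 and 1.05 in WT (0.86, adjusted p = 0.0482), against 0.416 and 1.56 at m3. Ifit1 (1.39, adjusted p = 0.0664) and Zbp1 (0.58, 0.0829) were not called.

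Isg15, Oas1a and Ddx60 were called in this comparison and in naive cells, and the overlap was not tested. Phf11a and Phf11b were not called in activated cells: Phf11b was at 44.7 and 48.5 RPKM in KO m1 and m2 and 53.9 and 48.9 in WT, and at 34.2 and 27.1 in the libraries labelled KO and WT m3. Irf7, the factor that amplifies interferon production, was called with the same 4 activated libraries (0.92, SE 0.13, adjusted p = 0.0106), at 25.7 and 19.3 RPKM in KO and 11.4 and 11.2 in WT, and at 10.8 in the library labelled KO m3 and 23.8 in that labelled WT m3. With all libraries it was not called (0.25, adjusted p = 1.00), and in naive cells it was at 9.93 to 17.0 in every library. It was 1 of 35 pathway genes tested that was called without the m3 libraries (2.86%, against 0.651% of all genes). Irf9 (0.12) was not called.

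**Figure D3:**
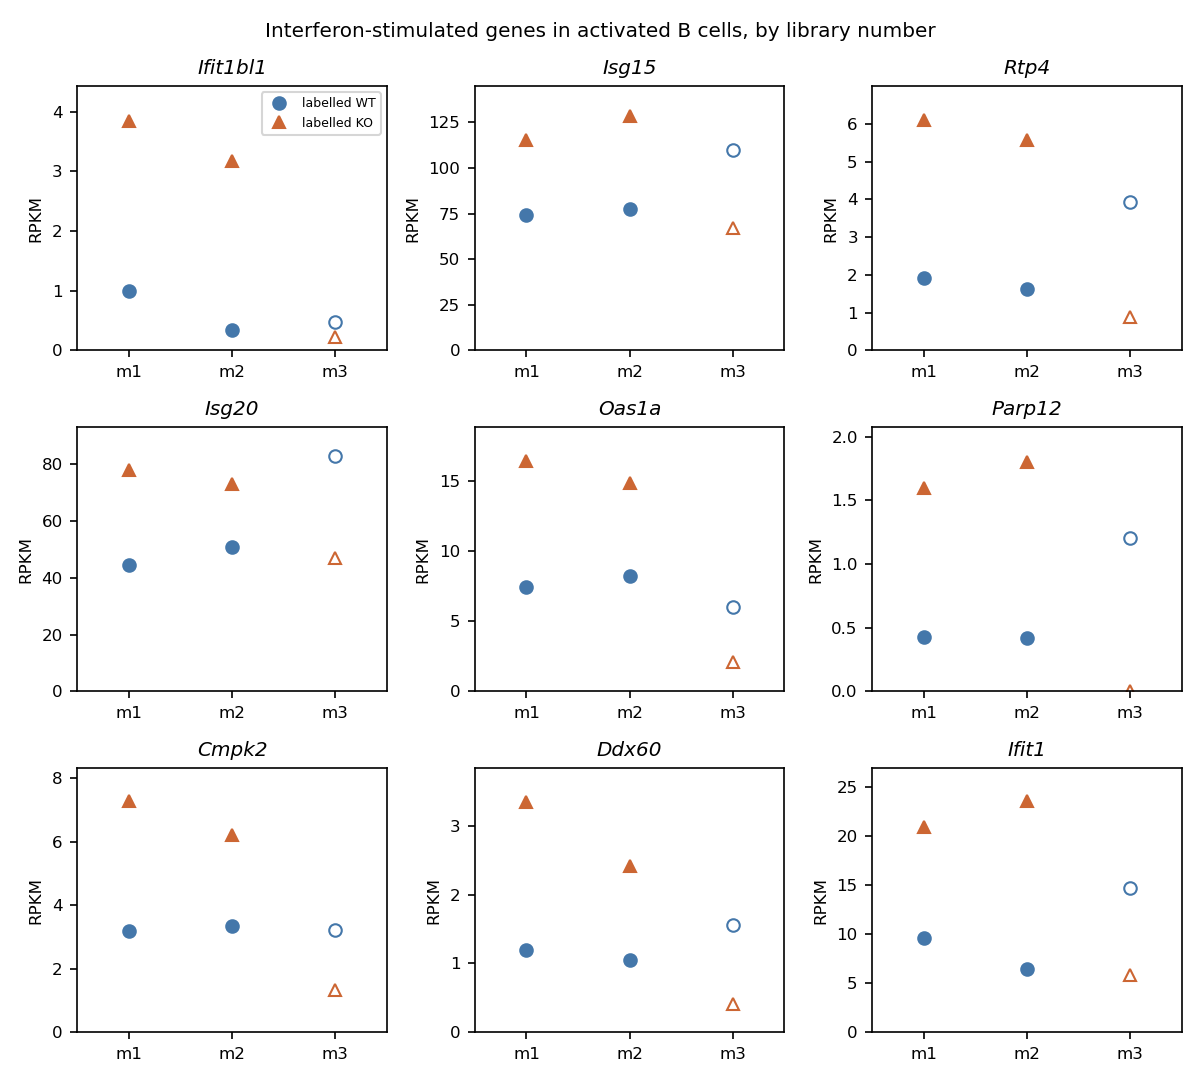
RPKM in activated B cells of the 8 interferon-stimulated genes called without the m3 libraries, and of Ifit1, in libraries m1, m2 and m3 labelled WT (blue circles) and KO (orange triangles), with open symbols for m3. At m1 and m2 each gene is higher in the library labelled KO, as Isg15 at 115.5 and 129 against 74.1 and 77.6, and at m3 each is higher in the library labelled WT.

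In plasmablasts no gene of the set was called between KO and WT. By limma 0 of 44 genes and 0 of 9986 passed (0%), with 1 and 85 at an unadjusted p under 0.05, and the median difference was -0.06 against -0.12 over all genes. The 5 smallest p were those of Samd9l, Ifit1, Oas3, Oas1a and Ms4a4c, each with an adjusted p of 0.609. Ifit1 was at 4.80, 1.43 and 22.0 RPKM in KO m1, m2 and m3 and 0.70 and 1.31 in WT m1 and m2 (1.80, SE 0.86). Oas1a was at 2.72, 1.87 and 10.3 in KO and 0.986 and 1.23 in WT (1.23, SE 0.76). Samd9l was at 2.33, 3.91 and 13.5 in KO and 1.54 and 1.33 in WT (1.35, SE 0.56). In these 3 genes and Ddx60, 4 of 44 (against 8.22% of all genes), each KO library exceeded both WT libraries, and in 2 (5.29%) each was below, but the highest value came from KO m3, in which the gene of the set with most reads had 10.9. Ms4a4c was at 3.51, 1.67 and 33.8 in KO and 2.61 and 1.1 in WT, with overlap, and Oas3 at 0.971, 0.468 and 0 in KO and 1.08 and 1.02 in WT. Without plasmablast KO m3 and the activated m3 libraries still 0 of 44 genes were called, against 7 of 9986 (0.0701%). Differences there were 0.60 for Slfn2 (SE 0.11, adjusted p = 0.0922), 0.74 for Samd9l (SE 0.18, 0.301), 0.41 for Isg15 (SE 0.10, 0.301), 0.64 for Oas1a (SE 0.16, 0.346) and 0.92 for Ifit1 (SE 0.31, 0.669). Isg15 was at 105.8 and 115.4 RPKM in KO m1 and m2, 55.5 in KO m3 and 81.1 and 84.2 in WT. The KO effect in plasmablasts minus that in activated cells was called for 0 of 44 and 0 of 9986 genes by limma (0%), with 0 and 10 at an unadjusted p under 0.05, and the smallest p were those of Samd9l (1.48), Oas3 (-0.76), Ifit1bl1 (-0.91), Isg20 (-0.86) and Ms4a4c (1.37).

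Between activated B cells and plasmablasts most differences of the set were below 0, that is, lower in plasmablasts, as were most over all genes. In WT cells 3 of 44 were called, all lower, against 176 of 9986 genes (1.76%; 1.43% lower): Samd9l (-3.39, SE 0.56, adjusted p = 0.0202 by limma), Herc6 (-1.31, SE 0.26, 0.0431) and Ms4a4c, a membrane protein of the MS4A family (-4.36, SE 0.90, 0.0476). Samd9l was at 34.1, 28.7 and 14.8 RPKM in activated WT m1, m2 and m3 and at 1.54 and 1.33 in plasmablasts, and Ms4a4c at 74.8, 66.4 and 34.2 and then 2.61 and 1.1. Herc6 was at 7.61, 7.06 and 7.27 and then 3.25 and 1.64. Slfn2, at 93.6, 91.8 and 90.4 and then 39.5 and 39.1, was not called (-1.21, adjusted p = 0.0705), nor was Bst2, the membrane protein tetherin that holds budding virus, at 76.1, 79.8 and 90.4 and then 153 and 160.0 (0.92, 0.0719). None of these 5 genes' groups overlapped, and plasmablasts lay above activated cells for 8 of the 44 genes (against 21.6% of all genes) and below for 25 (36.8%). Over the 44 genes 32 differences were below 0, against 6166 of 9986 genes, with a median of -0.38 against -0.12 over all genes. Scaling the libraries to equal medians moved the median of all genes from -0.12 to 0.06 here and from -0.22 to -0.06 in KO cells. The shallow library plasmablast KO m3 enters this comparison only through the shared spread, and without it 18 genes were called (3 higher, 15 lower), 40.9% of the set against 33.2% of all genes. The count was 0 without activated WT m1 or m2 or either plasmablast WT library, and 1 without any activated KO library, the activated library labelled WT m3 or plasmablast KO m1.

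In KO cells Herc6 fell (-1.32, SE 0.23, adjusted p = 0.0211 by limma) and Bst2 rose (0.92, SE 0.19, 0.0341), 2 of 44 genes against 344 of 9986 (3.44%; 2.67% lower, 0.771% higher). Herc6 was at 8.38, 8.22 and 6.21 RPKM in activated KO m1, m2 and m3 and at 2.80, 1.74 and 2.88 in plasmablasts, and Bst2 at 85.5, 94.7 and 79.5 and then 139.9, 168 and 190.2. Both had no overlap, as 2 of the 44 genes had with plasmablasts higher (against 7.35% of all genes) and 11 with plasmablasts lower (22.8%). Trim21, an intracellular antibody receptor, was at 5.22, 4.86 and 4.51 and then 1.87, 1.94 and 0 (-1.52, adjusted p = 0.0695), Slfn2 at 122, 98.7 and 80.0 and then 60.1, 59.8 and 35.2 (-0.96, 0.0715), and Samd9l at 25.7, 22.2 and 19.1 and then 2.33, 3.91 and 13.5 (-1.91, 0.0734). These 3 were not called, although their groups did not overlap. Without plasmablast KO m3, 18 genes were called (3 higher, 15 lower; against 30.4% of all genes), and the count was 0 without activated KO m1 or m2, activated WT m2 or plasmablast KO m2, and 1 without either activated m3 library, activated WT m1 or either plasmablast WT library. Irf8 was lower in plasmablasts as well, by limma, in WT (-1.98, adjusted p = 0.0156) and in KO cells (-1.81, 0.0117).

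Without plasmablast KO m3 and the activated m3 libraries, 22 of 44 genes were called in WT plasmablasts against WT activated cells (5 higher, 17 lower), while 45.9% of all genes were, so the share of the set is near the background. Isg20 (1.34), Zbp1 (1.08), Bst2 (1.00), Ifi27l2a (0.87) and Trim25 (0.29) were higher. Ms4a4c (-4.70), Samd9l (-3.73), Ifit1 (-2.16) and Oas1a (-2.07) had the largest falls by limma. In KO cells 32 of 44 were called there (3 higher, 29 lower; against 33.3% of all genes), and Ifit1 (-2.63), Oas1a (-2.35), Ifit1bl1 (-1.81), Rtp4 (-1.55) and Ddx60 (-1.48) were among those that fell.

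Levels in WT cells show what each stage expressed, with naive and cultured cells normalised in separate tables and therefore set side by side with no test. The activated library labelled WT m3, whose Thy1 and Irf8 go against an unguided label, is given apart. Of 47 genes in both tables, 7 had every activated WT value above every naive WT value (Isg15, Isg20, Oasl1, Ifih1, Bst2, Lgals3bp and Ifi27l2a) and 20 had every value below, against 28.1% and 28.5% of the 10178 genes in both tables. Without WT m3 and naive WT library A of arm 1, a setting chosen after the data were seen, 10 were above and 22 below, against 33.3% and 30.8%. Isg15 was at 7.32 to 13.8 RPKM in naive WT, at 74.1 and 77.6 in activated WT m1 and m2 (109.9 in the library labelled WT m3) and at 81.1 and 84.2 in plasmablast WT libraries. Isg20 was at 5.04 to 6.37 in naive, 44.5 and 50.8 in activated (82.6 in WT m3) and 114 and 129.8 in plasmablast libraries. Ifi27l2a, the highest of the set in cultured WT cells, was at 187 to 344 in naive, 641 and 724 in activated (925 in WT m3) and 1034 and 1504 in plasmablast libraries. These 3 genes were listed higher in every activated and plasmablast WT library than in every naive WT library. Others went the opposite way. Samd9l was at 67.8 to 106 in naive, 28.7 and 34.1 in activated (14.8 in WT m3) and 1.33 and 1.54 in plasmablast libraries. Ms4a4c was at 134 to 175 in naive, 66.4 and 74.8 in activated (34.2 in WT m3) and 1.1 and 2.61 in plasmablast libraries. Slfn2 was at 204 to 348 in naive, 91.8 and 93.6 in activated (90.4 in WT m3) and 39.1 and 39.5 in plasmablast libraries. Ifi208, a DNA sensor of the PYHIN family, was at 15.6 to 17.9 in naive and at 0.656 and 0.680 in activated libraries (0.929 in WT m3). Each of these 4 genes was lower in every activated WT library, WT m3 included, than in every naive one. Of the naive risers, Ifit1 was at 2.25 to 7.69 in naive, 6.43 and 9.56 in activated (14.7 in WT m3) and 0.70 and 1.31 in plasmablast libraries. Oas1a was at 3.63 to 8.98 in naive, 7.44 and 8.20 in activated (5.99 in WT m3) and 0.986 and 1.23 in plasmablast libraries, so that both had WT plasmablast values below their lowest naive WT value.

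**Figure D4:**
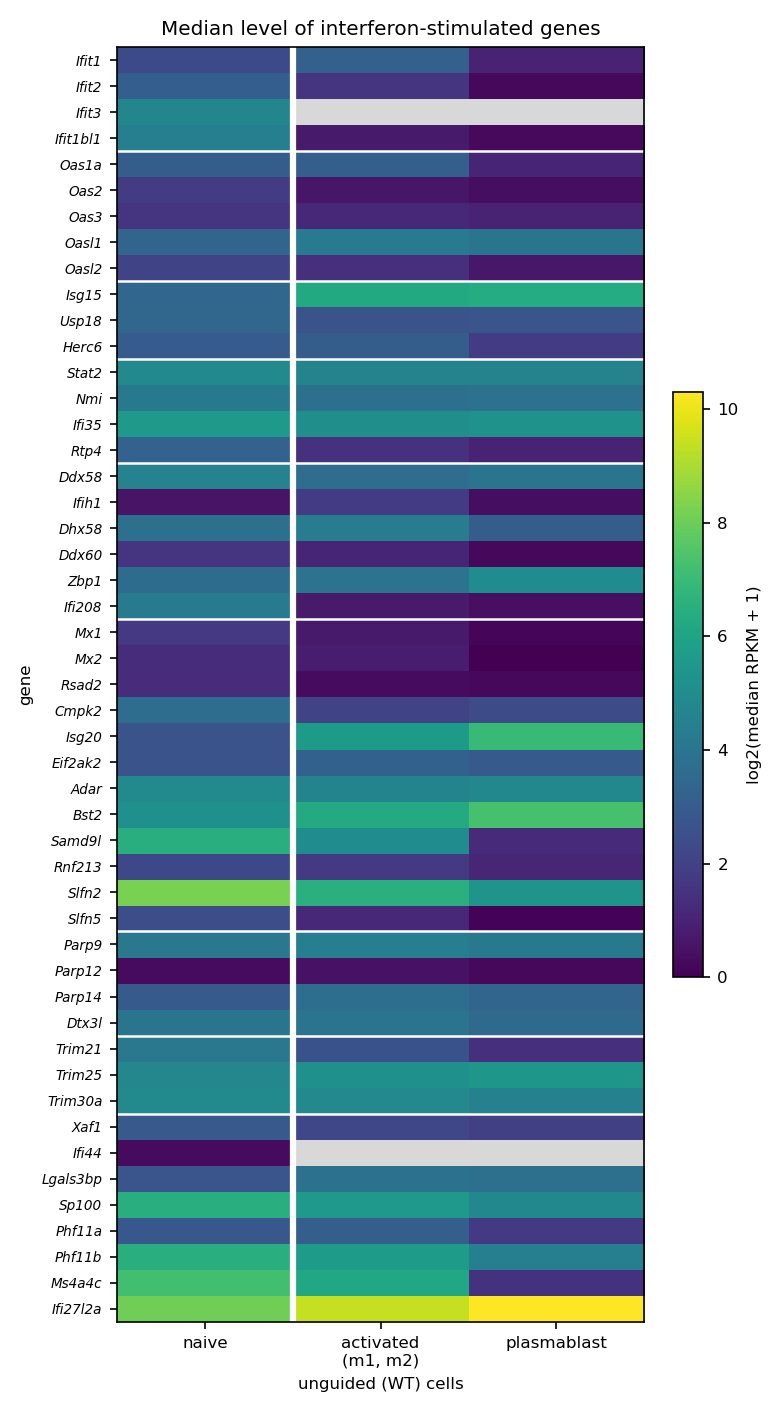
Median level of the 49 interferon-stimulated genes in WT naive cells (6 libraries), activated cells (m1 and m2, without the library labelled WT m3) and plasmablasts (2 libraries) as log2(median RPKM + 1), grouped by role, with grey where a gene was not listed. The white vertical line parts the separately normalised tables. Isg15, Isg20, Bst2 and Ifi27l2a are brighter in cultured cells, and Samd9l, Ms4a4c and Slfn2 grow darker from left to right.

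Exons of 11 of the 49 genes overlap a gene on the opposite strand in GENCODE M21, and for 4, Adar, Dtx3l, Parp9 and Rnf213, that gene is itself in the tables. The sources used here do not say that strand was recorded, so reads of such pairs cannot be told apart, and those of near-identical copies in the IFIT, OAS and PHF11 families may be split between copies. None of these 4 genes was called in naive cells or between KO and WT cells of the cultures. On the same strand, Herc6, Rtp4, Parp14 and Sp100 overlap genes outside the tables by 228, 184, 110 and 104 bases. A record of strand would not part such reads. Among these, Herc6 was called in naive cells, and Rtp4 in activated cells without the m3 libraries.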

How the data were processed

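PolyA RNA of sorted cells was made into libraries with SMART-seq v4 and Nextera XT kits, per the labels' protocols, and the submitters' processing notes name STAR and the mm10 build. Versions, counter and annotation are not given in the sources used here. Deposited values are RPKM computed by the authors, separately for naive and for cultured cells, and tests were run within a table. Gene length, a further deposited column, and the smallest steps between values (100% of low values within 0.2 of a whole number of reads) gave the reads assigned per library. As counts are not analysed here, no counting interval is given.

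Values were tested as log2(RPKM + 1), which makes differences of genes near 1 RPKM smaller than their ratios, for genes at 1 RPKM or more in at least 2 libraries (10137 naive, 9986 cultured). limma 3.58.1 in R 4.3.3 fitted 1 mean per group and table with a trend in the spread, and 10 two-sided contrasts were adjusted by Benjamini-Hochberg. The difference with both guides is the mean of the differences within arms. On simulated data with 200 changed genes, the naive guide 1 comparison (10137 genes) recovered 56% at a log2 change of 1 and 93.5% at 2, and the activated one (9986 genes) 24% and 69%. Unchanged genes called numbered 5 and 11 in the naive and 1 and 8 in the activated comparison. The changed genes were drawn from those with a mean log2(RPKM + 1) above 2, so recovery at lower levels was not measured. Noise was independent and normal, with the same spread of a gene in every library. Library weights estimated by limma ran from 0.085 to 2.32 in naive and from 0.014 to 8.50 in cultured libraries. Recovery with libraries this unequal was not measured. Symbols turned into dates (15 per table) were restored. Members, pathway lists and markers were chosen with earlier results of these data known. Values per library are given for genes called and for the 5 smallest p of each comparison, and pathway genes are named where called or where central to the pathway. Zbp1, Usp18 and other genes beyond this rule were picked after their values were seen. No promoter was matched for Dhx58, Ifi27l2a, Mx1, Mx2, Oas2, Parp14, Parp9, Rtp4, Usp18 and Zbp1. Alternatives were a pseudocount of 0.1, no filter, equal library medians, no trend, library weights, a replicate block, and leaving out libraries. Some pathway genes enter the counts and are not reported here by name.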

Additional observations from a re-analysis of the deposited data

How the results depend on the processing

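The 9 calls in naive cells with both guides stayed between 6 and 12 under every alternative. Ifit1, Isg15, Oas1a, Ddx60 and Phf11b were called in all 19, Phf11a in 18, Ifit3 and Lgals3bp in 10 and Herc6 in 9. With guide 1 (5 called) the count was 3 with a pseudocount of 0.1, 9 with library weights and 3 with the replicate block. With guide 2 (1 called) it was 0 with a pseudocount of 0.1, 0 with no trend in the spread, 6 with library weights, 0 with the replicate block and 4 without the libraries that stood apart. For activated cells (0 called) it was 11 with library weights and 8 without those libraries. For WT plasmablasts against WT activated cells (3 called) it was 1 with a pseudocount of 0.1, 22 with library weights, 0 with the replicate block and 22 without those libraries, and for KO cells (2 called) 30 with library weights and 32 without those libraries. The cause of these changes was not tested.

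Leaving out 1 library at a time gave 6 to 11 calls with both guides, 0 to 9 with guide 1, 0 to 3 with guide 2, and 0 to 18 for plasmablasts against activated cells in WT and in KO cells. It gave 0 to 0 for the difference of the guides, the WT arms, activated KO against WT, plasmablast KO against WT and the difference of the KO effects. Leaving out 1 library never removes both activated m3 libraries, so these counts do not cover that case. The difference of Cmpk2 in activated cells, 0.28 with all libraries, lay between -0.053 (without activated KO m1) and 0.857 (without the library labelled KO m3) and was reversed by the former. Libraries of the same letter or number, which the labels do not tie to an animal or culture, correlated at r of -0.243 to 0.254 after group means were removed, so they were not treated as pairs, and with the replicate block 8 genes were called with both guides. Plasmablast KO m3, at 51000 reads, limits what can be detected in plasmablasts. Genes with activated WT all above or all below naive WT numbered 7 and 20, and 10 and 22 without the libraries that stood apart, an alternative chosen after seeing the data.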
